A study of Homo sapiens with 10 samples.

Results

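The LXR axis was described through 10 genes chosen by name: the receptors NR1H3 (LXRα) and NR1H2 (LXRβ), the transporters ABCA1 and ABCG1, the apolipoproteins APOE, APOC1 and APOC2, and the target genes PLTP, MYLIP and LPCAT3. Of these, 8 were read by a transcript cluster of their own, out of 18417 genes read in this way on the array. APOC2 was read only by a cluster that also carries the readthrough locus APOC4-APOC2, so its values are given for that shared cluster and are not counted with the 8 genes. NR1H2 was not read here. The cells were THP-1, a human monocytic leukaemia line, made macrophage-like with the phorbol ester PMA for 24 h and then treated for 24 h. All 4 groups carried PMA: 3 arrays of cells given punicalagin, an ellagitannin of pomegranate, at 10 µM, 2 arrays of cells given myricetin and 2 of cells given quercetin, and 3 arrays of cells given the solvent DMSO. Each array of a group came from cells of another passage: passages 6, 7 and 8 for punicalagin and for DMSO, and passages 7 and 8 for myricetin and for quercetin. Replicates are numbered in the order of the passages. No dose of myricetin or quercetin is given in the sources used here, so the compounds were compared at the same time, at doses that may differ. One cell line was used, and the spread between arrays is that between passages of it.

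LXRα and LXRβ are nuclear receptors that bind oxysterols, the oxidized derivatives of cholesterol, and act on DNA as heterodimers with RXR. In macrophages loaded with cholesterol they turn on genes that move it out of the cell. ABCA1 passes cholesterol and phospholipid to lipid-poor apolipoprotein A-I, ABCG1 passes cholesterol to formed HDL, and the apolipoprotein genes APOE, APOC1, APOC4 and APOC2 lie side by side on chromosome 19 under shared enhancers. In human macrophages NR1H3 is itself a target of LXR.

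RNA was read on Affymetrix Human Gene 1.0 ST arrays, and every level below is a log2 intensity after RMA, the authors' background correction, quantile normalization and probe summary. A difference of 1 on this scale is a 2-fold change, and differences between groups are read within 1 gene. Levels are set against those of other genes only to place the markers and APOC1, which is a rough guide. Differences were tested with limma over the 21214 clusters with a gene symbol, and "called" stands for an adjusted p under 0.05. Array medians ran between 5.14 and 5.25. The array of DMSO passage 6 stood apart, with a mean correlation of 0.969 with the other arrays, against 0.977 to 0.983 for each of those. It also held the highest mean of 18 NF-κB inflammatory genes, 8.66, against 7.86 and 7.58 in the other DMSO arrays. That mean was 7.36 to 7.69 with punicalagin, 7.30 to 7.61 with myricetin and 8.31 to 8.38 with quercetin. Of 14 macrophage and monocyte markers, 13 lay above the median of the table, the mannose receptor gene MRC1 being the exception. Their mean was 8.51 to 9.26 with punicalagin, 8.35 to 8.47 with myricetin and 8.56 to 8.68 with quercetin, against 8.07 to 8.39 with DMSO. Of the 14, 11 were above DMSO with punicalagin, 8 with myricetin and 9 with quercetin. In the same order 2, 1 and 3 were called higher, and 1 was called lower with quercetin. Of all clusters, 2.33%, 0.509% and 3.92% were called in turn, in either direction. By their mean over all arrays, none of 7 T and NK cell markers (0) and none of 4 B cell markers (0) lay above the median. By the same measure 3 of 7 hepatocyte, 4 of 8 epithelial and fibroblast and 4 of 10 proliferation markers did, the keratin gene KRT18 highest among the epithelial ones (7.13 to 7.91). Among the T and NK cell markers, NCAM1 ran between 4.03 and 6.09, and 1 was called higher with quercetin against DMSO, where 2.80% of all clusters were. In bulk RNA, a change in the number of cells of a type and a change in RNA per cell cannot be told apart, and the part of these shifts in the results below was not tested.

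With punicalagin, 3 of the 8 genes were called, all higher: NR1H3, ABCG1 and APOC1. In that comparison 2.33% of all clusters were called in either direction and 2.13% were called higher. With quercetin 3 of the 8 were called, again all higher: NR1H3, APOC1 and APOE, where 3.92% of all clusters were called and 2.80% were called higher. With myricetin only NR1H3, 1 of the 8, was called, where 0.509% of all clusters were called and 0.438% were called higher. The median difference of the 8 genes was 0.92 with punicalagin, 0.32 with myricetin and 0.84 with quercetin, against -0.05, 0.00 and -0.04 over all clusters. The arrays did not overlap with DMSO in 6 of the 8 genes with punicalagin, in 4 with myricetin and in 5 with quercetin. Over all clusters the arrays did not overlap in 17.5% with punicalagin, 23.7% with myricetin and 31.8% with quercetin, in either direction. These 3 comparisons share the DMSO arrays. Punicalagin was fitted on 6 arrays and myricetin and quercetin on all 10, so the counts and shares called are not like for like. With all arrays in 1 fit, punicalagin called 1014 of the 21214 clusters (833 higher), against 832 with quercetin, and 5 of the 8 genes.

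**Figure D1:**
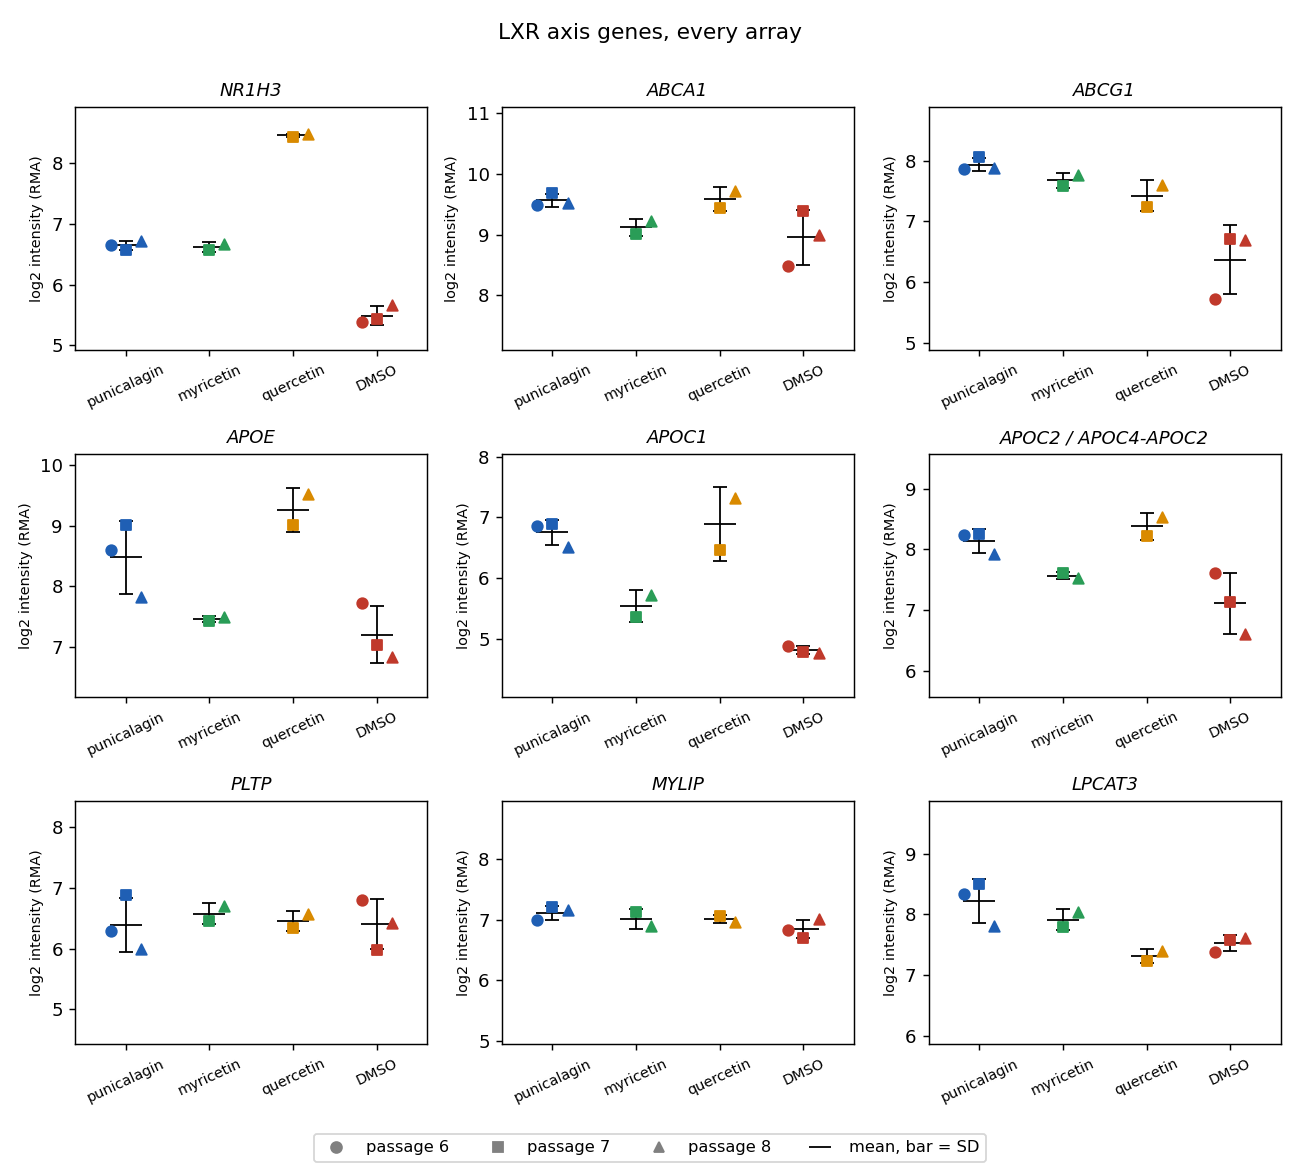
Log2 intensity (y axis) of the measured LXR axis genes and the shared APOC2 cluster on each array, by treatment (x axis), with 1 point per array (its shape giving the passage), a line at the group mean and a bar for the SD. For NR1H3 the quercetin arrays lie at 8.44 and 8.48, above the punicalagin and myricetin arrays at 6.57 to 6.72 and the DMSO arrays at 5.38 to 5.67.

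NR1H3, the gene of LXRα, was higher with each compound, and most with quercetin. Its log2 intensity was 6.66, 6.57 and 6.72 in the punicalagin arrays, 6.57 and 6.68 in the myricetin arrays and 8.44 and 8.48 in the quercetin arrays, against 5.38, 5.43 and 5.67 in the DMSO arrays. The DMSO arrays were the lowest and the quercetin arrays the highest, with no overlap, while the punicalagin and myricetin arrays lay among each other. Over DMSO the difference was 1.16 ± 0.14 (SE) with punicalagin, a 2.23-fold rise with an adjusted p of 0.00532 in limma. It was 1.13 ± 0.14 with myricetin, a 2.19-fold rise (limma, adjusted p = 0.00417). With quercetin it was 2.97 ± 0.14, a 7.83-fold rise (limma, adjusted p = 1.34e-06). Among the 21214 clusters NR1H3 had rank 13 by the size of its rise and rank 2 by p. Within the same passage the quercetin array exceeded the DMSO array by 3.01 and 2.81 for passages 7 and 8. The punicalagin array did so by 1.28, 1.14 and 1.05 for passages 6, 7 and 8, and the myricetin array by 1.14 and 1.01 for passages 7 and 8. The call for myricetin was lost without its replicate 1 (adjusted p = 0.0831) or replicate 2 (adjusted p = 0.109) and when only the myricetin and DMSO arrays were fitted (adjusted p = 0.0910), whereas those for punicalagin and quercetin held without any single array.

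Between the compounds, NR1H3 was lower with punicalagin than with quercetin, by -1.81 (95% interval -2.11 to -1.51, limma, adjusted p = 1.21e-04). It was also lower with myricetin than with quercetin, by -1.84 (95% interval -2.17 to -1.51, limma, adjusted p = 3.37e-04). Both calls held without any single array. Quercetin and myricetin are flavonols that differ by an additional hydroxyl group on the B ring of myricetin. Punicalagin and myricetin differed by 0.03, with an interval of -0.27 to 0.33, and were not told apart in this gene. Of all clusters, 3.91% were called between punicalagin and quercetin (2.06% higher and 1.85% lower with punicalagin), 1.70% between myricetin and quercetin (1.16% lower with myricetin) and 0.528% between punicalagin and myricetin (0.519% higher with punicalagin). Of the 8 genes, 2 were called in the first (1 higher, 1 lower), 3 in the second (all lower with myricetin) and 1 in the last (higher with punicalagin). Over the 3 pairs of compounds, p-values were adjusted within each pair over all clusters.

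The genes whose arrays followed NR1H3 most closely, among 19452 clusters of 1 symbol over the 10 arrays, were TGFB3 (Pearson r = 0.986), COL6A2 (0.980), POU4F2 (0.975), MMP8 (0.975) and SLC4A4 (0.972). TGFB3 encodes a ligand of the TGF-β family, COL6A2 a chain of type VI collagen and MMP8 the neutrophil collagenase. MMP8 averaged 4.44 with punicalagin, 4.46 with myricetin and 7.81 with quercetin, against 2.83 with DMSO. The 10 arrays fall into treatment groups, so these correlations mostly describe the order of the group means.

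ABCG1 was the transporter with the larger difference. Its level was 7.86, 8.05 and 7.88 in the punicalagin arrays, 7.58 and 7.76 in the myricetin arrays and 7.24 and 7.60 in the quercetin arrays, against 5.71, 6.70 and 6.69 in the DMSO arrays. Every treated array lay above every DMSO array, and the DMSO array of passage 6 lay well below the other DMSO arrays. Punicalagin exceeded DMSO by 1.56 ± 0.26 (SE), a 2.96-fold rise (limma, adjusted p = 0.0183). Without DMSO replicate 1, the array that stood apart, the difference was 1.23 (adjusted p = 0.00370). The call was lost without punicalagin replicate 1 (adjusted p = 0.0899) or replicate 2 (adjusted p = 0.118). It held in 10 of the 12 alternatives other than leaving out 1 array, over which the adjusted p ran between 0.00146 and 0.286. Same-passage differences were 2.15, 1.35 and 1.19 for passages 6, 7 and 8.

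With the flavonols ABCG1 lay close to the threshold. Myricetin exceeded DMSO by 1.31 ± 0.26, which was not called (limma, adjusted p = 0.0636), and by 1.12 with passage as a block, which was called (adjusted p = 0.0457). Quercetin exceeded DMSO by 1.05 ± 0.26, not called (adjusted p = 0.0504). Without DMSO replicate 1, ABCG1 was called for both, at 0.98 with myricetin (adjusted p = 0.0115) and 0.72 with quercetin (adjusted p = 0.0169). Without DMSO replicate 3 it was called for both as well (adjusted p = 0.0364 with myricetin and 0.0396 with quercetin), and without DMSO replicate 2 for quercetin (adjusted p = 0.0405). Over the other alternatives the adjusted p of ABCG1 ran between 0.00769 and 0.338 for myricetin, with 3 of 9 calling it, and between 0.00755 and 0.202 for quercetin, with 4 of 9 calling it. No pair of compounds was called: ABCG1 differed by 0.26 between punicalagin and myricetin, by 0.51 between punicalagin and quercetin and by 0.26 between myricetin and quercetin (interval -0.38 to 0.89). The genes most like ABCG1 over the 10 arrays were ARL11 (r = 0.972), ASIC1 (0.971), NEDD9 (0.971), RGS2 (0.959) and DENND4B (0.959). NEDD9 encodes an adhesion scaffold and RGS2 a regulator of G protein signalling.

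ABCA1, the exporter to lipid-poor apolipoprotein A-I, was not called in any of the 6 comparisons with all arrays of each fit. It had levels of 9.49, 9.69 and 9.52 with punicalagin, 9.02 and 9.22 with myricetin and 9.44 and 9.73 with quercetin, against 8.48, 9.40 and 8.99 with DMSO. The punicalagin and quercetin arrays all lay above the DMSO arrays, by a margin smaller than the spread of the DMSO arrays, and the myricetin arrays overlapped with DMSO. The difference from DMSO was 0.61 with punicalagin (interval 0.11 to 1.11, limma, adjusted p = 0.280), 0.16 with myricetin (adjusted p = 0.940) and 0.63 with quercetin (adjusted p = 0.188). At the same passage the punicalagin array exceeded the DMSO array by 1.01, 0.29 and 0.53 for passages 6, 7 and 8, with the widest gap at the passage whose DMSO array stood apart. Without DMSO replicate 1 the difference of ABCA1 from DMSO was 0.37 with punicalagin and 0.39 with quercetin. Without DMSO replicate 2, the highest DMSO array, it was 0.83 with punicalagin and 0.85 with quercetin, and quercetin was then called (limma, adjusted p = 0.0457). Punicalagin and quercetin differed by -0.02, with an interval of -0.51 to 0.48.

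Both DNA strands of the RefSeq promoter windows (GRCh38.p14, 250 bases before to 50 after each start) were searched for the LXR response element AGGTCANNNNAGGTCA, with up to 2 of its 12 fixed letters different. Of 35116 windows, 822 held such a match (2.34%). The window of ABCA1 held it, and the 250 bases before the start are shown because this promoter is the textbook LXR element, with the match in capitals. They lie on the minus strand at chr9:104928156-104928405.
ABCA1 promoter: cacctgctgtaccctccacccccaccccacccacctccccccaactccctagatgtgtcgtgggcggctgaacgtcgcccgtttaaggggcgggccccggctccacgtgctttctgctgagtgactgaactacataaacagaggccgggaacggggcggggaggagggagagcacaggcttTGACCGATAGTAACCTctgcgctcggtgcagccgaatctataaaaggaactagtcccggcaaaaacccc
On the other strand the match reads AGGTTACTATCGGTCA, 69 to 54 bases before the start. It is a match of letters only, and the arrays measured no binding.

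**Figure D2:**
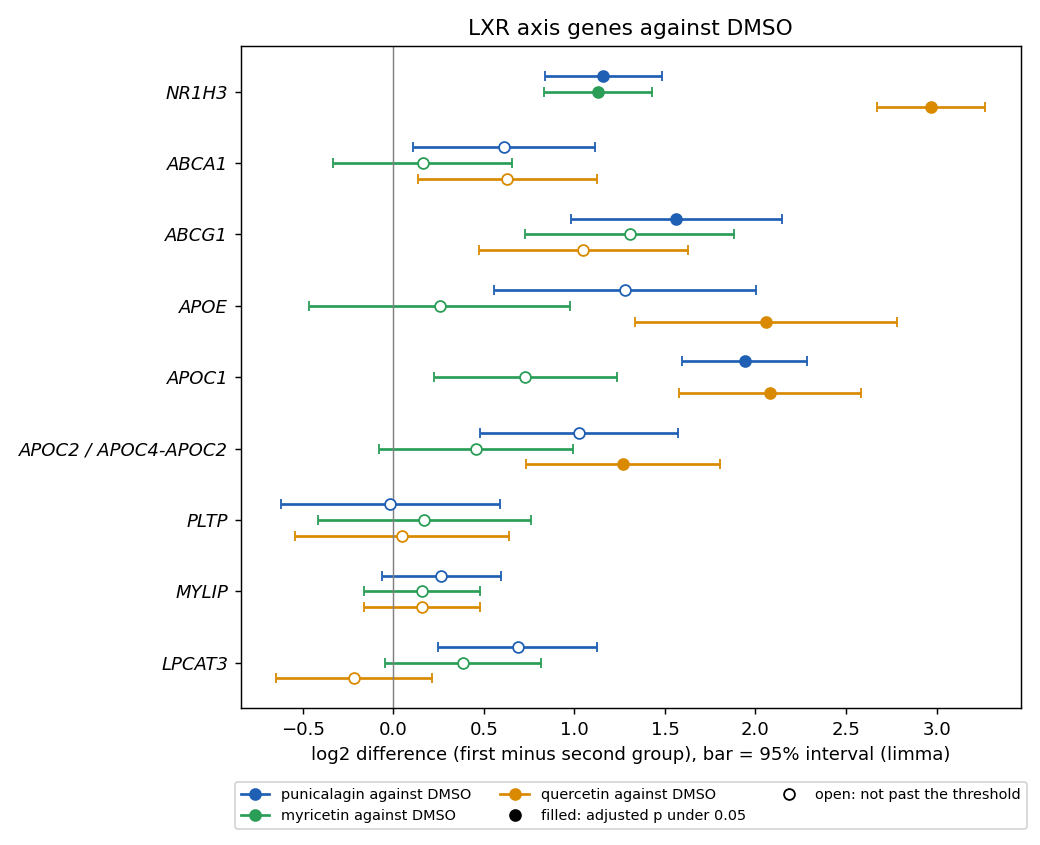
Log2 difference from DMSO (x axis) of each LXR axis gene (rows) with punicalagin, myricetin and quercetin, with 95% intervals of limma. Filled points were called at an adjusted p under 0.05: NR1H3 with all 3 compounds, ABCG1 with punicalagin, APOC1 with punicalagin and quercetin, and APOE and the shared APOC2 cluster with quercetin.

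The apolipoprotein genes of the chromosome 19 cluster had their highest levels with punicalagin and quercetin. APOC1 was called in both. APOE and the shared APOC2 cluster were called with quercetin, and with punicalagin only under other fits. All arrays in 1 fit, as used for quercetin, was among those. APOC1 encodes a small apolipoprotein of VLDL and HDL. Its level was 6.87, 6.89 and 6.51 in the punicalagin arrays, 5.36 and 5.73 in the myricetin arrays and 6.46 and 7.32 in the quercetin arrays, against 4.88, 4.79 and 4.77 in the DMSO arrays. The DMSO arrays lay together below the median of their arrays, the myricetin arrays came next, and the punicalagin and quercetin arrays lay highest and among each other. Punicalagin exceeded DMSO by 1.94 ± 0.15 (SE), a 3.84-fold rise (limma, adjusted p = 8.38e-04), and quercetin did so by 2.08 ± 0.23, a 4.23-fold rise (limma, adjusted p = 4.61e-04). Both calls held without any single array. Myricetin exceeded DMSO by 0.73, which was not called (adjusted p = 0.318), although its arrays lay above all DMSO arrays.

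Between compounds APOC1 was 2.32-fold higher with punicalagin than with myricetin, by 1.21 (interval 0.71 to 1.72, limma, adjusted p = 0.0471). This call was lost with passage as a block (1.17, adjusted p = 0.0654) and without DMSO replicate 2 or 3 or either myricetin array. It was also lost without punicalagin replicate 1 or 2, and the largest adjusted p of these fits was 0.456. Myricetin lay below quercetin by -1.35 (interval -1.90 to -0.80, limma, adjusted p = 0.0227), a call lost without either myricetin array or without quercetin replicate 2 (adjusted p up to 0.242). Punicalagin and quercetin differed by -0.14 and were not called.

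APOE encodes apolipoprotein E, which macrophages secrete and which carries cholesterol to receptors of the LDL family. It had levels of 8.60, 9.02 and 7.83 with punicalagin, 7.43 and 7.49 with myricetin and 9.01 and 9.52 with quercetin, against 7.73, 7.04 and 6.84 with DMSO. The quercetin arrays lay above all DMSO arrays by over 1 unit. The punicalagin arrays also lay above DMSO, the array of passage 8 by a narrow margin, and the myricetin arrays lay among the DMSO arrays. Quercetin exceeded DMSO by 2.06 ± 0.33 (SE), a 4.17-fold rise (limma, adjusted p = 0.00441), which was not called without quercetin replicate 2 (adjusted p = 0.0935). Punicalagin exceeded DMSO by 1.28 ± 0.32, not called (adjusted p = 0.0902), and the same fit with passage as a block called it (adjusted p = 0.0326). With all arrays in 1 fit, as used for quercetin, the difference of punicalagin from DMSO was called too. It was also called without DMSO replicate 1 (1.54, adjusted p = 0.0276) or without punicalagin replicate 3 (adjusted p = 0.0263), and over the alternatives other than leaving out 1 array at a time the adjusted p ran between 0.0137 and 0.446. Same-passage differences with punicalagin were 0.87, 1.98 and 0.99 for passages 6, 7 and 8. Those with quercetin were 1.97 and 2.67, and those with myricetin 0.39 and 0.65, for passages 7 and 8.

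APOE was lower with myricetin than with quercetin, by -1.80 (interval -2.59 to -1.01, limma, adjusted p = 0.0319). This call was lost without any one of the myricetin or quercetin arrays or punicalagin replicate 1 (adjusted p up to 0.307). Punicalagin and quercetin differed by -0.78 (interval -1.50 to -0.06, adjusted p = 0.263), and punicalagin and myricetin by 1.02 (adjusted p = 0.270), neither called. Without punicalagin replicate 3, punicalagin and myricetin differed in APOE by 1.35, which was called (adjusted p = 0.0433). The genes most like APOE over the 10 arrays were TNFSF15 (r = 0.984), SLC39A14 (0.978), HRH1 (0.978), ITGAE (0.976) and FLRT2 (0.972). TNFSF15 encodes a cytokine of the TNF family, SLC39A14 a zinc and iron transporter and HRH1 the histamine H1 receptor.

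The cluster shared by APOC2 and APOC4-APOC2 gave levels of 8.24, 8.26 and 7.92 with punicalagin, 7.62 and 7.53 with myricetin and 8.23 and 8.54 with quercetin, against 7.61, 7.13 and 6.61 with DMSO. APOC2 encodes the activator of lipoprotein lipase. All punicalagin and quercetin arrays lay above the DMSO arrays, and the myricetin arrays overlapped with the highest DMSO array, that of passage 6. Quercetin exceeded DMSO by 1.27 ± 0.24 (SE), a 2.41-fold rise (limma, adjusted p = 0.0131), a call lost without quercetin replicate 1 (adjusted p = 0.0733) or 2 (adjusted p = 0.203). Punicalagin exceeded DMSO by 1.03 ± 0.24, not called (adjusted p = 0.0741) and called with passage as a block (adjusted p = 0.0266) or without DMSO replicate 1 (1.27, adjusted p = 0.0126). With all arrays in 1 fit, as used for quercetin, punicalagin was called too (limma, adjusted p = 0.0206). With only the quercetin and DMSO arrays fitted, quercetin was not called (limma, adjusted p = 0.0974). The difference of 0.46 with myricetin was not called (adjusted p = 0.673).

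The promoters of these neighbours are shown because the genes lie within a short stretch of chromosome 19 and had their highest levels in the same treatments. Each sequence is the 250 bases before the start in RefSeq (GRCh38.p14), all on the plus strand: chr19:44905546-44905795 for APOE, chr19:44914422-44914671 for APOC1 and chr19:44945801-44946050 for APOC2. Capitals mark the match to the LXR element searched above.
APOE promoter: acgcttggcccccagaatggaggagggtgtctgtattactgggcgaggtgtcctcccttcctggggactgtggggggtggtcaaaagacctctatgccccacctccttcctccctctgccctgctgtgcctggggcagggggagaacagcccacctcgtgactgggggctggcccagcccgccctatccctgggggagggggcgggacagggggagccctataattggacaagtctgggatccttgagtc
APOC1 promoter: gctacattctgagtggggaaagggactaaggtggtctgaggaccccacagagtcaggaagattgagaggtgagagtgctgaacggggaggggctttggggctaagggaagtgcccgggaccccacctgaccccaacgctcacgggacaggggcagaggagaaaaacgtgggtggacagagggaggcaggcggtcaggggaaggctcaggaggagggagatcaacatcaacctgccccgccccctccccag
APOC2 promoter: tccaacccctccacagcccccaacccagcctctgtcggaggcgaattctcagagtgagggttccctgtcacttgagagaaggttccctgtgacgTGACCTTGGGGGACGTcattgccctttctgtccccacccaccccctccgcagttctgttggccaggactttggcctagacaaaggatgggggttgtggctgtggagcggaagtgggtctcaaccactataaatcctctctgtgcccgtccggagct
Only the window of APOC2 held a match, 156 to 141 bases before the start, which reads ACGTCCCCCAAGGTCA on the other strand. The closest stretch differed in 3 fixed letters in the window of APOC1 and in 4 in that of APOE. Of the other genes with a window, NR1H3, NR1H2, PLTP, MYLIP and LPCAT3 held none.

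Genes on either side of the apolipoprotein cluster were read as well, a choice made after the values of the members were seen. In chromosomal order these were CBLC, BCAM, NECTIN2 and TOMM40 before APOE and CLPTM1, RELB, CLASRP and ZNF296 after APOC2. Of the 8, 0 were called with punicalagin, myricetin or quercetin against DMSO in limma, and 2 with punicalagin (NECTIN2 and RELB), 0 with myricetin and 0 with quercetin had an unadjusted p under 0.05. Of all clusters, 12.3% had such a p with punicalagin, 8.62% with myricetin and 14.8% with quercetin. Their differences ran between -0.43 and 0.67 with punicalagin, between -0.39 and 0.19 with myricetin and between -0.25 and 0.28 with quercetin. NECTIN2, which encodes a cell adhesion protein, had the highest of them (0.67, adjusted p = 0.110), and RELB, an NF-κB subunit, the lowest with punicalagin (-0.43). The differences of APOC1 and the shared APOC2 cluster with punicalagin and quercetin all lay above these ranges, and so did those of APOE. With myricetin the differences of APOE (0.26), APOC1 (0.73) and the shared APOC2 cluster (0.46) also lay above the range of the neighbours, and none was called.

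**Figure D3:**
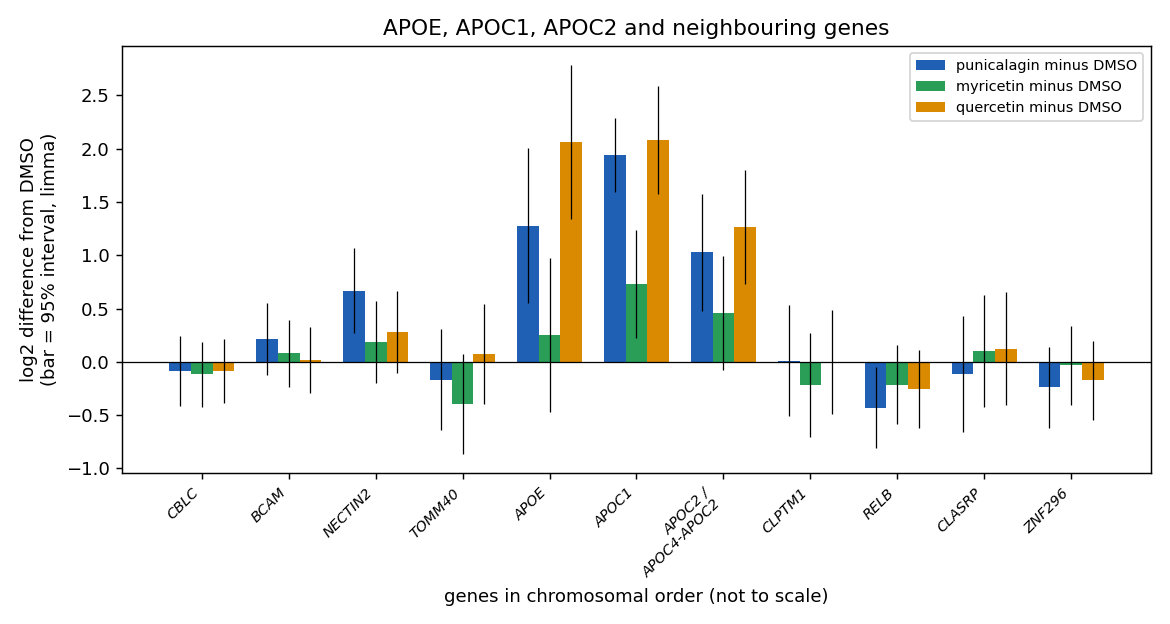
Log2 difference from DMSO (y axis) of the genes around the apolipoprotein cluster in their order along chromosome 19 (x axis, not to scale), as coloured bars for punicalagin, myricetin and quercetin, with lines for the 95% intervals of limma. APOE, APOC1 and the shared APOC2 cluster stand above their neighbours with punicalagin (1.28, 1.94 and 1.03) and quercetin (2.06, 2.08 and 1.27), while the neighbours lie between -0.43 and 0.67. With myricetin they lie at 0.26, 0.73 and 0.46, against -0.39 to 0.19 for the neighbours.

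LPCAT3, which inserts polyunsaturated fatty acids into phospholipids, had a higher mean than DMSO with punicalagin and a lower one with quercetin. Its level was 8.33, 8.49 and 7.80 with punicalagin, 7.78 and 8.04 with myricetin and 7.23 and 7.39 with quercetin, against 7.38, 7.58 and 7.61 with DMSO. The punicalagin and myricetin arrays lay above all DMSO arrays, and the quercetin arrays overlapped with DMSO at its lower end. None of the differences from DMSO was called: 0.69 with punicalagin (limma, adjusted p = 0.137), 0.39 with myricetin (adjusted p = 0.636) and -0.22 with quercetin (adjusted p = 0.723). Without punicalagin replicate 3, whose array was the lowest of its group, the difference of punicalagin from DMSO was called (adjusted p = 0.0365). Of the 12 alternatives other than leaving out 1 array, 11 left it uncalled. The other was all arrays in 1 fit, as used for myricetin and quercetin, which called it (limma, adjusted p = 0.0490). Punicalagin exceeded quercetin by 0.90 (interval 0.47 to 1.33), a 1.87-fold difference that was called (limma, adjusted p = 0.0273). It was not called without punicalagin replicate 1 or 2 or without either quercetin array (adjusted p up to 0.318).

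PLTP and MYLIP did not separate the groups. PLTP encodes phospholipid transfer protein, which remodels HDL, and had levels of 6.29, 6.88 and 6.00 with punicalagin, 6.46 and 6.70 with myricetin and 6.33 and 6.57 with quercetin, against 6.81, 5.98 and 6.42 with DMSO. All groups overlapped, and punicalagin differed from DMSO by -0.02 with an interval of -0.62 to 0.59. MYLIP encodes IDOL, the ubiquitin ligase that sends the LDL receptor to degradation. Its levels were 6.99, 7.20 and 7.15 with punicalagin, 7.12 and 6.89 with myricetin and 7.05 and 6.96 with quercetin, against 6.83, 6.70 and 7.01 with DMSO. The groups overlapped, and the largest difference from DMSO was 0.27, with punicalagin (limma, adjusted p = 0.543).

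**Figure D4:**
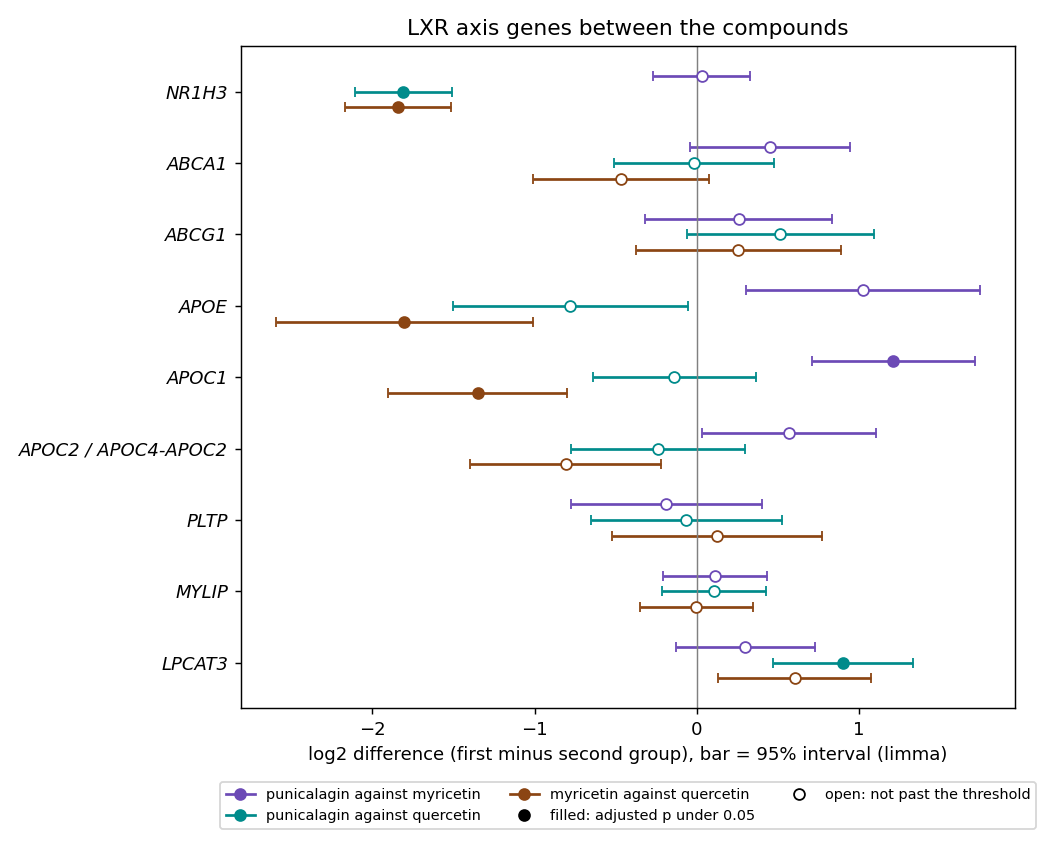
Log2 difference between compounds (x axis) of each LXR axis gene (rows) for the 3 pairs of compounds, with 95% intervals of limma and filled points where called. NR1H3 lies at -1.81 and -1.84 for punicalagin and myricetin against quercetin, and LPCAT3 at 0.90 for punicalagin against quercetin.

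Other LXR target genes were followed in a list of 14, of which 12 were measured. With punicalagin 4 of the 12 were called higher and 0 lower (median 0.78), with myricetin 1 and 0 (median 0.23) and with quercetin 2 and 0 (median 0.36). Of all clusters, 2.13% were called higher with punicalagin, 0.438% with myricetin and 2.80% with quercetin. LPL, the lipoprotein lipase, was called with each compound, with differences of 3.31 with punicalagin (limma, adjusted p = 0.00118), 1.94 with myricetin (0.0124) and 2.55 with quercetin (5.26e-04). SCD, a fatty acid desaturase, rose by 1.92 with punicalagin (adjusted p = 0.0238), and SMPDL3A, a phosphodiesterase, by 0.85 (adjusted p = 0.0481). MERTK, a receptor for the uptake of apoptotic cells, rose by 1.44 with punicalagin (adjusted p = 0.0315) and by 1.56 with quercetin (adjusted p = 0.00772). LPL and SCD are also known targets of PPAR and SREBP factors, so the list is not specific to LXR. SREBF1, which encodes SREBP-1 and is a classic LXR target, was not called, with differences of 0.75 with punicalagin (adjusted p = 0.299), 0.48 with myricetin and 0.19 with quercetin.

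Partners and coregulators of LXR did not pass the test. Of 14 listed, 11 were measured and 0 were called with any compound against DMSO, although 3 had an unadjusted p under 0.05 with each of them in limma, where all clusters gave 12.3% with punicalagin, 8.62% with myricetin and 14.8% with quercetin. The medians of the list were -0.21 with punicalagin, -0.13 with myricetin and -0.23 with quercetin. The coactivator NCOA1 differed by -0.54 with punicalagin (limma, adjusted p = 0.161) and by -0.54 with quercetin (adjusted p = 0.0882). NRIP1, a corepressor, differed by -0.63 with myricetin (adjusted p = 0.253). Of 7 measured genes of oxysterol synthesis and inactivation, 1 was called with punicalagin and 0 with myricetin or quercetin, while 2 had an unadjusted p under 0.05 in each comparison, against the same shares of all clusters. The shares called over all clusters were 2.33% with punicalagin, 0.509% with myricetin and 3.92% with quercetin. The 1 call was that of DHCR7, a last-step enzyme of cholesterol synthesis, which rose by 2.32 with punicalagin (limma, adjusted p = 0.00757). The medians of this list were -0.03 with punicalagin, 0.04 with myricetin and -0.12 with quercetin. CYP27A1, which makes 27-hydroxycholesterol, differed by 0.71 with punicalagin (adjusted p = 0.0813) and by 0.51 with quercetin (adjusted p = 0.313).

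Over all clusters, 2.13% were called higher with punicalagin, 0.438% with myricetin and 2.80% with quercetin. Of 12 measured genes of cholesterol efflux and storage other than the members, 4 were called higher with punicalagin, 0 with myricetin and 3 with quercetin, and 0 lower with any of them. With myricetin 5 of them had an unadjusted p under 0.05 in limma, where 8.62% of all clusters did, CAV1 (1.19, adjusted p = 0.0632) and CES1 (-0.95, adjusted p = 0.0632) among them. LIPA, the lysosomal acid lipase, rose by 2.12 with punicalagin (limma, adjusted p = 0.00390) and by 1.23 with quercetin (adjusted p = 0.0191). SCARB1, the HDL receptor SR-BI, rose by 1.29 with punicalagin (adjusted p = 0.00790) and differed by 0.07 with quercetin (adjusted p = 0.928). The difference between punicalagin and quercetin in SCARB1 was itself called (1.22, adjusted p = 0.00455). CAV1, caveolin-1, and STARD4, a carrier of cholesterol inside the cell, rose with punicalagin (1.34 and 0.96) and with quercetin (1.58 and 1.18). Among 3 measured lipoprotein receptors, LRP1, which takes up lipoproteins that carry apolipoprotein E, was called with all 3 compounds. It rose by 2.29 with punicalagin (adjusted p = 6.90e-04), 0.96 with myricetin (adjusted p = 0.0249) and 1.36 with quercetin (adjusted p = 6.61e-04).

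**Figure D5:**
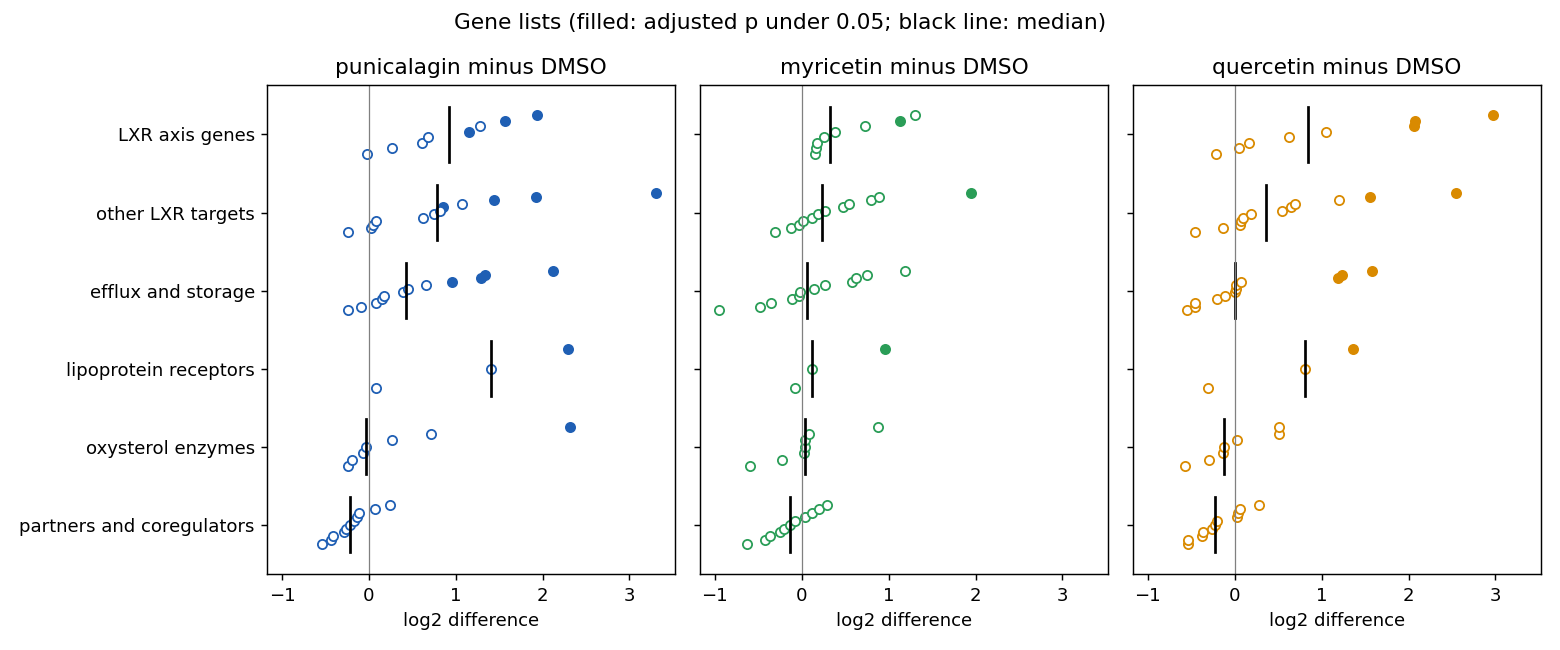
Log2 difference from DMSO (x axis) of each measured gene of the LXR axis and of the other lists (rows), in a panel each for punicalagin, myricetin and quercetin, with 1 point per gene (filled where called) and a black line at the median. The medians of the other LXR target genes lie at 0.78, 0.23 and 0.36, and those of the partners and coregulators at -0.21, -0.13 and -0.23.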

How the data were processed

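The deposited values are log2 intensities of 33297 transcript clusters, which the authors obtained by RMA in Partek Genomics Suite 7.0. Affymetrix Expression Console also appears in the submitters' processing notes, beside RMA and Partek 7.0. It is not stated if RMA was run on the 10 arrays jointly. The genome build of the probes is not given in the sources used here. No values were added, removed or normalized again, and 0 columns belonged to other samples.

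A platform table names 1 gene for 19460 clusters, several for 1754 and none for 12083, and the 21214 named clusters were tested. A gene was read from its brightest cluster that carries its symbol alone. Differences were fitted with limma 3.58.1 in R 4.3.3 (two-sided, Benjamini-Hochberg over all named clusters): punicalagin against DMSO on their 6 arrays, and the other 5 comparisons on all 10 arrays with a shared spread. The fit was tested on simulated data. Arrays give no read depth, and the small number of arrays limits the precision.

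The members, lists and tests were chosen with earlier results of these data known. The genes named are all members, up to 4 called genes of each list with the largest change (up to 2 where none was called), the 5 clusters most like NR1H3, ABCG1 and APOE, and the neighbours of APOE. SREBF1, SCARB1 with quercetin and CYP27A1 with punicalagin were added after their values were seen. The NF-κB list had 2 genes called lower with punicalagin (SOD2 and NFKBIA), 0 with myricetin, and 2 higher and 1 lower with quercetin. Of 21214 clusters, 42 were called lower with punicalagin, and 593 higher and 239 lower with quercetin.

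Between punicalagin and DMSO, arrays of the same passage were not consistently more alike than those of different passages. Their deviations from the group means correlated at 0.163, -0.189 and 0.229 for passages 6, 7 and 8, against -0.349 to 0.273 between different passages. Myricetin and quercetin arrays were not compared in this way. Passage, a culture label, entered 1 alternative as a block. The others were all arrays in 1 fit, only the 2 groups compared, only passages 7 and 8, trend and robust estimation, array weights, median centring, quantile normalization, all clusters, only bright clusters, the methods' t-test, and leaving out each array.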

Additional observations from a re-analysis of the deposited data

How the results depend on the processing

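Over 6 comparisons, the differences of the 8 genes and the shared APOC2 cluster kept their direction and their side of the threshold in 915 of the fits under an alternative, lost the call in 38, gained one in 38 and changed sign in 26, none of these last in a result that was called. Many alternatives, such as trend and robust estimation, all clusters or leaving out an array of a group not compared, cannot change the difference itself. In those fits the direction was fixed and only the call could change. Of the 8 genes, 3 were called for punicalagin against DMSO, 5 with all arrays in 1 fit and 0 with the methods' t-test after Benjamini-Hochberg, which called 0 of all clusters (at its unadjusted p and over 2-fold, 4 and 374). Over all clusters, 1014 were called with all arrays in 1 fit, against 494 as reported. For myricetin against DMSO the count of 1 became 2 with the passage block, with passages 7 and 8 only and with array weights, and 0 with the myricetin and DMSO arrays only. Those fits called 227, 361, 533 and 7 of all clusters in turn, against 108 as reported. For punicalagin against myricetin the count of 1 became 0 with the passage block, with passages 7 and 8 only, with trend and robust estimation and with all clusters tested. These settings called 76, 137, 53 and 0 of all clusters in turn, against 112 as reported. With all clusters tested the counts were 1 for punicalagin against quercetin, instead of 2, and 1 for myricetin against quercetin, instead of 3. Without 1 array at a time they were 2 to 5 for punicalagin, 0 to 2 for myricetin and 2 to 5 for quercetin against DMSO, 0 to 2 for punicalagin against myricetin, 1 to 2 for punicalagin against quercetin and 1 to 3 for myricetin against quercetin. Where this left a flavonol with 1 array, that array was assumed to vary like the other groups. For punicalagin against DMSO, 127 to 660 of all clusters were called without 1 array. The passage block, where arrays of a passage are paired, changed no call other than those named with their results: APOE and the shared APOC2 cluster (punicalagin against DMSO, adjusted p = 0.0326 and 0.0266), ABCG1 (myricetin against DMSO, 0.0457) and APOC1 (punicalagin against myricetin, 0.0654). The cause of these changes was not tested.

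The sign changed in uncalled values near 0. PLTP, punicalagin against DMSO, was 0.23 with passages 7 and 8 only and 0.065 with array weights, and ran between -0.26 and 0.18 without 1 array. ABCA1, myricetin against DMSO, was -0.074 and -0.023 under those settings and ran between -0.074 and 0.38. ABCA1, punicalagin against quercetin, was 0.12 with the passage block and 0.022 with passages 7 and 8 only, and ran between -0.16 and 0.12. MYLIP, myricetin against quercetin, was 0.0067 with quantile normalization and ran between -0.12 and 0.11. Without 1 array PLTP also ran between -0.040 and 0.37 for myricetin and between -0.16 and 0.25 for quercetin against DMSO, between -0.43 and 0.0045 for punicalagin against myricetin and between -0.31 and 0.13 for punicalagin against quercetin. NR1H3 and MYLIP, punicalagin against myricetin, ran between -0.025 and 0.083 and between -0.0080 and 0.23, and APOC1, punicalagin against quercetin, between -0.57 and 0.29.

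Over all clusters, the alternatives other than leaving out 1 array called 0 to 1142 for punicalagin (494 as reported), 7 to 533 for myricetin (108) and 377 to 2539 for quercetin (832) against DMSO. They called 0 to 485 for punicalagin against myricetin (112), 502 to 2448 for punicalagin against quercetin (830) and 155 to 2560 for myricetin against quercetin (361). The mean of several clusters of a gene gave no further value, as each measured member has 1. Groups of 2 and 3 arrays limit all of these counts.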
